A study of Mus musculus with 16 samples.

Results

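The mitochondrial ribosomal protein genes were followed in colonocytes (absorptive epithelium of the large intestine) of mice fed 1 of 2 diets. Members were the rows of the count table whose symbol was Mrpl or Mrps followed by a number and at most 1 letter. The rule found 78 of the 54392 symbols in the table, and it used no measured value. Colonocytes of C57BL/6 mice fed corn oil with cellulose for 3 weeks gave 9 libraries, and those of C57BL/6 mice fed fish oil with pectin for 3 weeks gave 7. No strain, allele or other treatment separated the groups, and the labels give neither age nor sex. The series concerns the death of colonocytes by ferroptosis under these dietary components.

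Mitochondria carry their own ribosomes, which translate the few messages of the mitochondrial genome, all of which encode subunits of the respiratory chain and ATP synthase. Every protein of these ribosomes is encoded in the nucleus, made in the cytosol and imported, while their ribosomal RNAs are transcribed inside the organelle. The large subunit (Mrpl genes) forms peptide bonds and the small subunit (Mrps genes) reads the message. Some members have a counterpart in bacterial ribosomes and others were gained in the lineage leading to animals. Colonocytes oxidise fatty acids in their mitochondria, and butyrate from fermented fibre is a main fuel.

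Of the 78 members, 51 were assigned to the large subunit and 26 to the small one. Mrps30 and Mrps18a bear small-subunit symbols but belong to the large subunit and were counted there. Mrps36, now known as a component of the 2-oxoglutarate dehydrogenase complex, was counted in neither. The filter on low counts kept 77 members among 14321 genes. The member left out, Mrpl53, had 0 to 5 counts per library with a median of 0.5. Of its annotated exon bases, 88.0% also lay in an exon of Gm42688 on the same strand, a gene with 31 to 61 counts per library.

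The start regions of 4 members are shown because they hold letters that nuclear factors of mitochondrial biogenesis bind. NRF1, a factor that acts on many nuclear genes for mitochondria, recognises GCGC, any base, T and GCGC in a row. The ETS family, to which GABPA belongs, recognises CCGGAAG, YY1 recognises AAGATGGC, and E-box factors such as MYC recognise CACGTG. Each stretch has 120 bases, runs 5′ to 3′ on the gene's strand and ends just before the RefSeq start of GRCm38.p6, with the motif letters in capitals. Mrpl12 and Mrpl9 hold the NRF1 letters, beginning 81 and 28 bases before the start, and Mrpl43 and Mrps22 hold the ETS letters, with the first match beginning 56 and 11 bases before it.
Mrpl12, chr11:120484517-120484636, plus strand: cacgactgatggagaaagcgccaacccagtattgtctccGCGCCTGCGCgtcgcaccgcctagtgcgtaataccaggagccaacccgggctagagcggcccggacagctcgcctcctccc
Mrpl9, chr3:94443216-94443335, plus strand: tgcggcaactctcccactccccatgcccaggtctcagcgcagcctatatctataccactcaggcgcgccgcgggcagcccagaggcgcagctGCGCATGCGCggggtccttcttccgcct
Mrpl43, chr19:45006443-45006562, minus strand: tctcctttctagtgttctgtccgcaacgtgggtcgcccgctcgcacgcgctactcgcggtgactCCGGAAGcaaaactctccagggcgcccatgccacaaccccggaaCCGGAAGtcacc
Mrps22, chr9:98601680-98601799, minus strand: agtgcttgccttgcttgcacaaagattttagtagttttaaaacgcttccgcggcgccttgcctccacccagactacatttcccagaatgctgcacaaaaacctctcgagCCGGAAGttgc

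A RefSeq start region of 300 bases (250 before the start and 50 after it) was found for 69 members. Searched on both strands, the NRF1 letters lay in 13 of them (18.8%), against 10.3% of the regions of tested genes and 4.78% of all 27025 regions. The ETS letters lay in 25 (36.2%), against 18% and 9.12%. The YY1 letters lay in 12 (17.4%), against 4.62% and 2.88%. The E-box letters lay in 5 (7.25%), against 10.2% and 7.24%. At least 1 of the NRF1, ETS and YY1 motifs was present in 42 members, and a region can hold more than 1. A match describes letters only and shows no binding.

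Total counts ran from 13996288 to 19512755 per library. The names of 10 libraries begin with the letters GC (5 of each diet), and those of 4 corn oil/cellulose and 2 fish oil/pectin libraries do not; the labels do not say what the letters stand for, and this name form was a term in the fit. The titles number the libraries as biological replicates without saying whether each is a mouse of its own, and p-values rest on the variation among them. Y-linked genes had at most 3 counts in 7 libraries and 2710 to 4363 in the other 9, so mice of both sexes appear to be present. All 7 were GC-named (3 of 5 with corn oil/cellulose and 4 of 5 with fish oil/pectin), so name form and sex were partly tied. With sex as a covariate 72 members were higher with fish oil/pectin, where 19.9% of all genes were higher and 18.6% lower. The numbers in the library names form a lower series (4 corn oil/cellulose and all 7 fish oil/pectin libraries) and a higher one (5 corn oil/cellulose libraries), so this series and diet were partly tied too. In the 11 libraries of the lower series alone 48 members were higher and 0 lower, with a median log2 fold change of 0.40. In that fit 8.37% of all genes were higher and 7.4% lower. Fish oil/pectin library 7 stood apart, with 0.631 CPM (counts scaled to the size of the library) of Hoxd13, a gene of the posterior body axis, against 23.9 to 100.6 in the other 15. Of 12 epithelial markers 5 were higher with fish oil/pectin and 0 lower. Of 9 tested T and NK cell markers, 0 were higher and 7 lower, with a median log2 fold change of -1.02. Over all genes tested 21.7% were higher and 20.1% lower. Cnn1 of 5 smooth muscle markers, Cdh5 of 4 endothelial and Sox10 of 4 enteric glia and neuron markers were at 0 in every library. The other markers of these lists were detected, and 2 endothelial and 1 glia and neuron marker passed the filter on low counts. That glia and neuron marker was lower with fish oil/pectin, with a log2 fold change of -0.91. These are bulk samples, in which fewer cells of a type and less RNA per cell cannot be told apart.

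The transcripts of the mitochondrial ribosome were higher with fish oil/pectin almost without exception. By edgeR's quasi-likelihood test with Benjamini-Hochberg adjustment over all genes, 74 of 77 members were higher, where 21.7% of all genes tested were. None was lower (0 of 77), where 20.1% of all genes were, and 0 members had a negative fold change at any p. DESeq2 also called 74 higher and 0 lower, where 21.5% and 22.1% of all genes were. The median log2 fold change of the members was 0.44, a fold of 1.36, against -0.0043 over all genes, and single members ran from 0.01 to 0.60.

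The members' mean log2 CPM shows how the libraries fell. In the GC-named libraries it was 5.36 ± 0.051 (SD, n = 5) with corn oil/cellulose, from 5.28 to 5.41, and 5.86 ± 0.19 (SD, n = 5) with fish oil/pectin, from 5.67 to 6.15. In the others it was 5.17 ± 0.051 (SD, n = 4), from 5.11 to 5.22, and 5.39 ± 0.049 (SD, n = 2), with values of 5.35 and 5.42. The diets did not overlap within either name form. Across the name forms they did, since fish oil/pectin libraries without the GC prefix lay at the level of GC-named corn oil/cellulose libraries. Library 7 had the highest value of all, and without it the median log2 fold change was 0.37 with 74 members higher (19.2% of all genes). Without libraries 6 and 7, a choice made after the data were seen, it was 0.32 with 68 higher (15.2% of all genes).

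**Figure D1:**
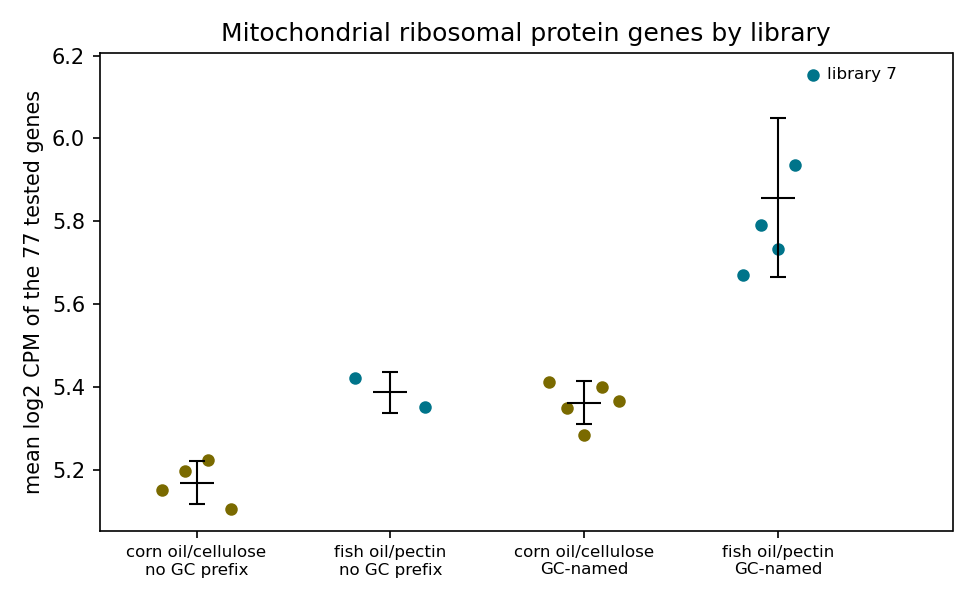
Mean log2 CPM of the 77 tested members (y axis) in each of the 16 libraries, by diet and name form; black bars give the mean and SD. Within each name form every fish oil/pectin library lies above every corn oil/cellulose library, and library 7 is highest at 6.15.

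Some marker sums moved with the diet in the GC-named libraries. There the summed CPM of 12 epithelial markers was 23187 to 25868 with corn oil/cellulose and 26669 to 31952 with fish oil/pectin, and in the others it overlapped, at 21373 to 24907 and 22457 to 22507. In the GC-named libraries the summed CPM of 10 T and NK cell markers was 21.5 to 52.9 with corn oil/cellulose and 11.01 to 25.9 with fish oil/pectin, and in the others 7.71 to 13.3 and 8.36 to 12.1. The sums of myeloid markers, 41.9 to 54.0 and 42.6 to 60.8 CPM in the GC-named libraries, and of endothelial markers, 7.00 to 10.7 and 3.38 to 10.7 CPM, overlapped between the diets there. In the other libraries the endothelial sum was 9.68 to 12.9 CPM with corn oil/cellulose and 8.07 to 8.18 CPM with fish oil/pectin. Fibroblast markers in the GC-named libraries summed to 10.8 to 20.1 CPM with corn oil/cellulose and 6.23 to 9.23 CPM with fish oil/pectin. B and plasma cell markers summed there to 4.88 to 12.6 and 2.49 to 4.77 CPM. Enteric glia and neuron markers summed there to 1.71 to 2.95 and 0.56 to 1.30 CPM. These sums did not overlap in the GC-named libraries. In the others only the glia and neuron sum stayed apart among them, at 1.67 to 2.59 and 1.49 to 1.51 CPM. A score over 22 tested non-epithelial markers (the mean of their standardised levels) was 0.18 to 1.02 with corn oil/cellulose and -0.35 to -0.09 with fish oil/pectin in the GC-named libraries, without overlap. It was -0.63 to -0.17 and -0.58 to -0.49 in the others. With this score as a covariate in edgeR, 0 members passed, 62 had an unadjusted p under 0.05, the median log2 fold change was 0.36, and 4 of all genes passed. DESeq2 with the same covariate, added after the data were seen, called 22 members higher and 0 lower with a median of 0.35. There 3.59% of the 11440 genes given an adjusted p were higher and 2.99% lower. The part of these cells in the members' difference was not tested.

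**Figure D2:**
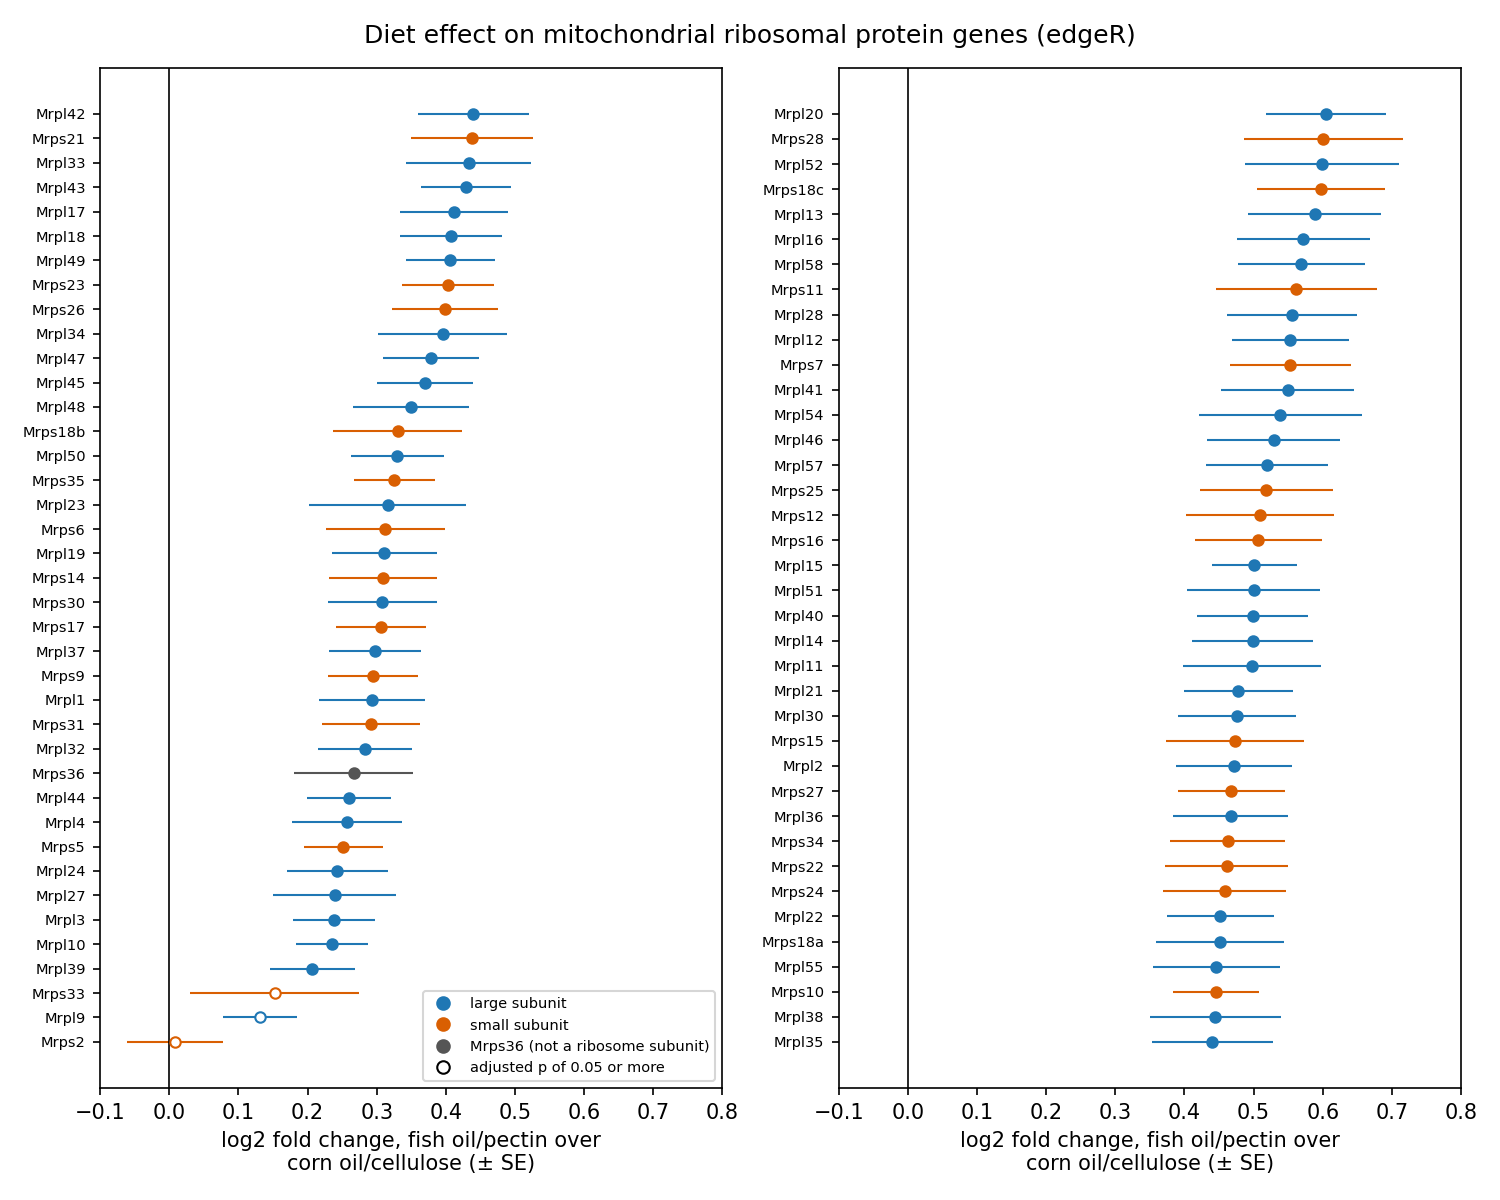
Log2 fold change (x axis, points with SE) of each of the 77 tested members (y axis), ordered by size and coloured by subunit; open points had an adjusted p of 0.05 or more. All points lie above 0 (Mrps2 fell below it in 15 of 31 other settings), and the 3 open ones are Mrps2, Mrpl9 and Mrps33.

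In the large subunit 49 of 50 tested members were higher (21.7% of all genes tested were), with a median log2 fold change of 0.44. In the small subunit 24 of 26 were, with a median of 0.44. Members with a bacterial counterpart and those without had medians of 0.44 and 0.43, with 44 of 46 and 29 of 30 higher. The classes thus lay close together, and no test between them was made.

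The stalk of the large subunit, which recruits translation factors, was represented by Mrpl12, Mrpl10 and Mrpl11. Mrpl12 (ENSMUSG00000039640.7, chr11:120484613-120489065, plus strand, GRCm38) forms the stalk itself and had the highest level per exon length of all members, with a mean of 133 RPKM (the CPM divided by exon length in kilobases). It had 131 to 185 CPM with corn oil/cellulose (median 171) and 174 to 368 CPM with fish oil/pectin (median 253). The diets overlapped only across name forms, since GC-named libraries had 171, 173, 181, 184 and 185 CPM against 247, 253, 271, 293 and 368 CPM. The others had 131, 139, 150 and 157 CPM against 174 and 183 CPM. Its log2 fold change was 0.55 ± 0.08 (SE, adjusted p = 0.00046).

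Mrpl11, at the base of the stalk, rose by a log2 fold change of 0.50 ± 0.10. Mrpl10, which anchors the stalk, rose by 0.24 ± 0.05 on the same scale, one of the 6 smallest changes that passed. The difference between these proteins of a single structure was not tested.

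Mrpl15 had the lowest p of all members. It had 47.3, 53.9, 54.5 and 54.8 CPM in the corn oil/cellulose libraries without the GC prefix against 71.1 and 71.4 CPM, and 56.9, 63.1, 65.7, 66.1 and 67.7 CPM in the GC-named ones against 84, 85.6, 89.8, 94.3 and 110 CPM. Every fish oil/pectin library lay above every corn oil/cellulose library in both name forms together. The log2 fold change was 0.50 ± 0.06 (SE, adjusted p = 0.00034). The same full separation over all libraries was found for 12 members, where 2.35% of all genes showed it, and 0 members lay fully below, where 0.999% of all genes did. Mrpl13, Mrpl16, Mrps5, Mrps10, Mrps22, Mrps28 and Mrpl57 were among the 12.

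The 6 members with the largest fold change were Mrpl20, Mrps28, Mrpl52, Mrps18c, Mrpl13 and Mrpl16, with log2 fold changes from 0.57 to 0.60. Mrpl20 averaged 48.3 CPM (SD 5.96, n = 9) under corn oil/cellulose, and 78.2 CPM (SD 20.3, n = 7) was its mean under fish oil/pectin. Its 2 fish oil/pectin libraries without the GC prefix had 51.8 and 57.8 CPM and overlapped the highest corn oil/cellulose libraries, which reached 54.9 CPM. The log2 fold change was 0.60 ± 0.09 (SE, adjusted p = 0.000429). Mrpl52, a protein with no bacterial counterpart, had 58.1 to 76.4 CPM against 71.2 to 150.4 CPM, and a log2 fold change of 0.60 ± 0.11.

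In the small subunit, Mrps12, the counterpart of the bacterial S12 protein of the decoding centre, had 28.3 to 42.3 CPM with corn oil/cellulose (median 33.1) and 34.6 to 78.0 CPM with fish oil/pectin (median 48.4). The diets overlapped across name forms and not within them. The log2 fold change was 0.51 ± 0.11 (SE, adjusted p = 0.00153).

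Mrps5, which lies near the path of the message, had a smaller change with less overlap. It had 49.8 to 60.5 CPM with corn oil/cellulose and 60.6 to 76.9 CPM with fish oil/pectin, medians of 52.9 and 63.8. No library of one diet reached the other, and the log2 fold change was 0.25 ± 0.06 (SE, adjusted p = 0.00247). By name form it was 0.24 in the GC-named libraries and 0.27 in the others.

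**Figure D3:**
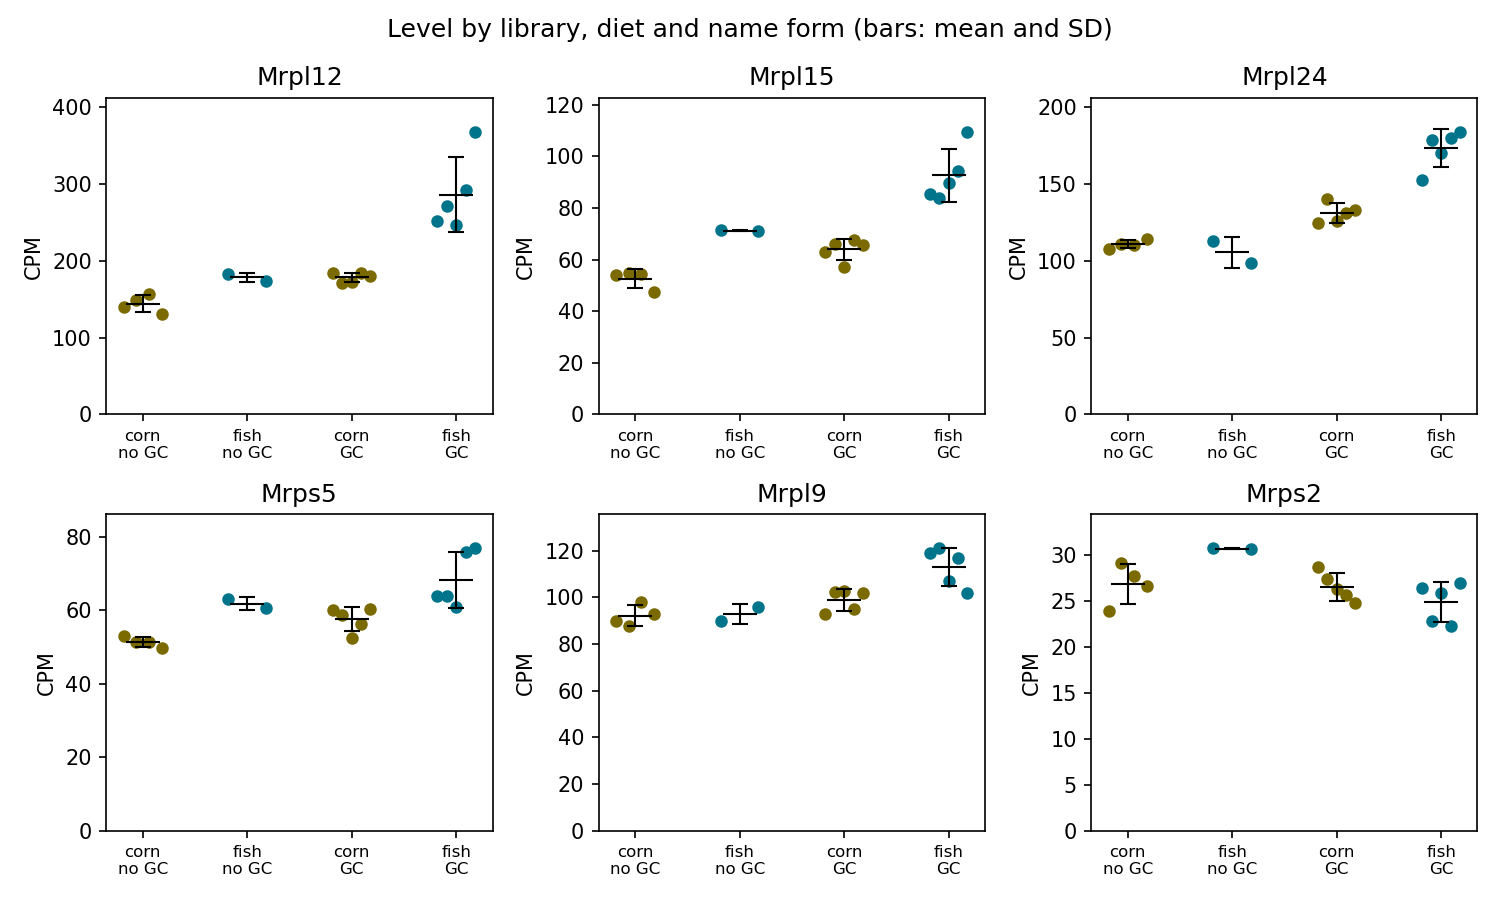
CPM (y axis, from 0) of Mrpl12, Mrpl15, Mrpl24, Mrps5, Mrpl9 and Mrps2 in each library, by diet and name form; black bars give the mean and SD. Mrpl15 and Mrps5 separate the diets in all libraries, Mrpl24 only among GC-named ones, and Mrps2 reads 22.3 to 30.8 CPM throughout.

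Several members are known from inherited human disease of mitochondrial translation. Mrps22 rose by a log2 fold change of 0.46 ± 0.09 and Mrps34 by 0.46 ± 0.08. Mrpl3 and Mrpl44, a protein with a ribonuclease III fold, rose less, by 0.24 ± 0.06 and 0.26 ± 0.06. Of the annotated exon bases of Mrps34, 63.4% lie opposite an exon of Mapk8ip3 and 37% within an exon of Nme3 on the same strand. Of all members, 28 share exon bases with a gene on the other strand and 8 with one on the same strand. No source used here gives the strand setting of the counting, so the values of these members are less certain.

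The 3 genes of the S18 family were not tested against each other. Mrps18c, in the small subunit, had a log2 fold change of 0.60 ± 0.09, Mrps18a, in the large subunit, had 0.45 ± 0.09, and Mrps18b, in the small subunit, had 0.33 ± 0.09. All 3 passed. Mrps30, also of the large subunit, rose by 0.31 ± 0.08, and Mrps36, the dehydrogenase component, by 0.27 ± 0.09.

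The 3 members that did not pass were named after their values were seen. Mrps2, the counterpart of bacterial S2, had 23.9 to 29.1 CPM with corn oil/cellulose and 22.3 to 30.8 CPM with fish oil/pectin. Its highest values were the 2 fish oil/pectin libraries without the GC prefix, at 30.7 and 30.8 CPM, and its lowest were GC-named fish oil/pectin libraries at 22.3 and 22.8 CPM. The log2 fold change was 0.01 ± 0.07 (SE, adjusted p = 0.937), and its sign changed in 15 of 31 other settings, to -0.065 with libraries scaled by total counts.

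Mrpl9 had 87.7 to 102.6 CPM against 89.8 to 121.1 CPM, with overlapping diets and a log2 fold change of 0.13 ± 0.05 (SE, adjusted p = 0.058). It passed when fish oil/pectin library 1 or 7, or library 3 of corn oil/cellulose, was left out. Mrps33 had 4.41 to 6.46 CPM against 4.52 to 7.19 CPM and a log2 fold change of 0.15 ± 0.12 (SE, adjusted p = 0.331). Mrps33 had between 71 and 125 counts per library. Among the members that passed, Mrpl27 and Mrpl23 were lost when single libraries were left out. For Mrpl27 these were libraries 5, 6, 7 and 9 of corn oil/cellulose and 4, 6 and 7 of fish oil/pectin, with log2 fold changes from 0.18 to 0.28 over all such fits. For Mrpl23 they were libraries 5, 7 and 9 of corn oil/cellulose and 4 and 6 of fish oil/pectin, with 0.26 to 0.38.

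Levels per exon length spanned 1.66 to 133 RPKM around a median of 19.5. After Mrpl12 came Mrpl34 with 93.7, Mrpl52 with 75.7 and Mrpl54 with 68.6 RPKM, and the lowest were Mrpl23 with 1.66, Mrps33 with 3.31 and Mrps10 with 3.42 RPKM. The length is that of all annotated exons of a gene, which for Mrps10 was 8079 bases and for Mrpl34 607 bases, so long unused exons lower a value. Members with low and high levels both rose: Mrps10 by a log2 fold change of 0.45 ± 0.06 and Mrpl34 by 0.40 ± 0.09.

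The members' median change was larger in the GC-named libraries than in the others, but 69 of 77 members did not pass a test of the difference. In a fit with separate diet effects, 74 of 77 members were higher in the GC-named libraries (23.1% of all genes), with a median log2 fold change of 0.54. These were not the same 74 as in the main fit. By the edgeR test Mrpl9 passed there (0.19, adjusted p = 0.0135) and Mrps18b did not (0.28, adjusted p = 0.0609), while Mrps2 had -0.094. In the libraries without the GC prefix 0 members and 0 of all genes passed in edgeR. The median was 0.21, and 74 members had a positive value. There 27 members had an unadjusted p under 0.05, all of them positive, where 16.7% of all genes did, and DESeq2 called 2 members higher, Mrpl15 and Mrps10. Fitted alone, these 6 libraries gave 15 of 77 members higher and 0 lower, where 4.34% of all genes were higher and 2.02% lower. In the GC-named libraries 68 members had CPM of all fish oil/pectin libraries above all corn oil/cellulose libraries, where 15.2% of all genes did. In the others 58 of 77 members had such CPM, where 18.1% of all genes did.

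The difference between the name forms passed for 8 of 77 members, all with the larger effect in the GC-named libraries. Of all genes 8.41% passed, 4.27% with the larger value in the GC-named libraries and 4.14% with the smaller. They were Mrpl14, Mrpl24, Mrpl30, Mrpl28, Mrpl52, Mrps24, Mrps16 and Mrpl33, the last 3 named for having passed. Mrpl24, of the large subunit, had 124, 126, 131, 133 and 141 CPM in GC-named corn oil/cellulose libraries against 153, 170, 179, 180 and 184 CPM with fish oil/pectin. In the others it had 108, 110, 111 and 114 CPM against 98.5 and 113 CPM. The diets were thus apart in the first and overlapped in the second, and the effects differed by 0.47 ± 0.10 on the log2 scale (SE, adjusted p = 0.0183). With sex as a covariate, added after the data were seen, 4 members passed (Mrpl14, Mrpl24, Mrpl30 and Mrpl28). With the non-epithelial score as a covariate 0 passed (adjusted p of the 8 from 0.057 to 0.13), and 0 with the replicate number as a block (0.23 to 0.24). None of the 8 passed when fish oil/pectin library 2, 1 of 2 in its cell, was left out, and 18 members passed without library 3.

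**Figure D4:**
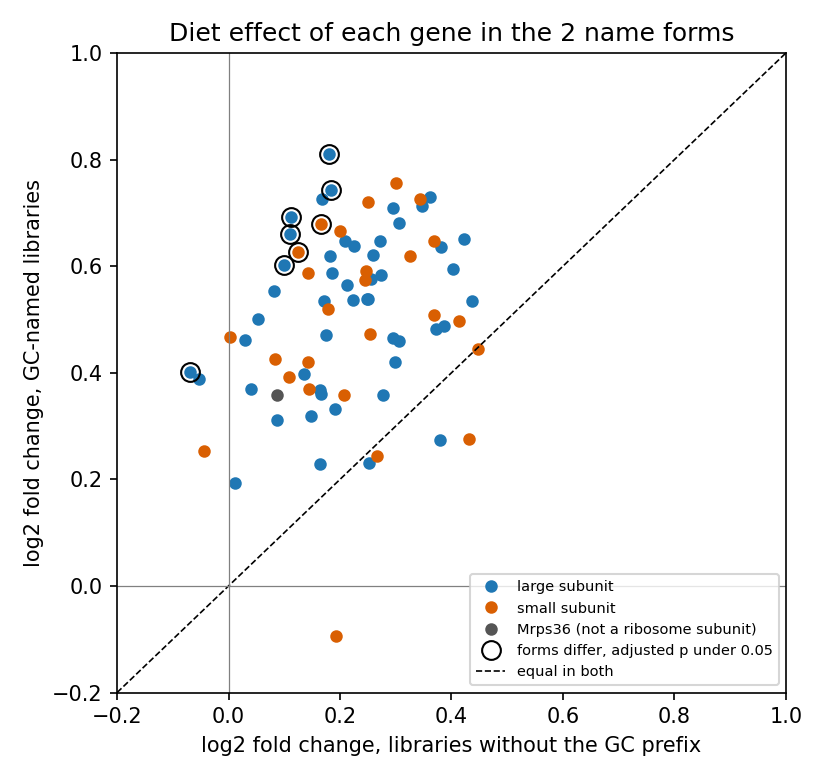
Diet effect of each tested member as log2 fold change in the libraries without the GC prefix (x axis) and in the GC-named ones (y axis); the dashed line marks equal effects and black rings the 8 members whose effects differed. Of the 77 points, 71 lie above the line.

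The diet effect on all genes followed exon length, and 36 of 77 members fell in the shortest class. With genes split by length into 5 equal classes, in the shortest class (57 to 2115 exon bases) 36.7% were higher and 4.42% lower, and in the longest (7248 to 123179) 6.1% were higher and 48.9% lower. The median log2 fold change of all genes fell from 0.23 in the shortest class through 0.11, 0.01 and -0.08 to -0.23 in the longest. The members' medians in the same classes were 0.46 (36 members), 0.41 (16), 0.42 (10), 0.30 (8) and 0.43 (7). All 7 members of the longest class, Mrpl13, Mrpl15 and Mrps10 among them, were higher, and the members' median lay above that of all genes in every class. With the length trend removed from the counts, 66 members were higher and 0 lower, and the members' median was 0.37. In that fit 22.3% of all genes were higher and 11.1% lower. The members that no longer passed were Mrpl10, Mrpl24, Mrpl27, Mrpl39, Mrpl44, Mrps6, Mrps18b and Mrps36.

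**Figure D5:**
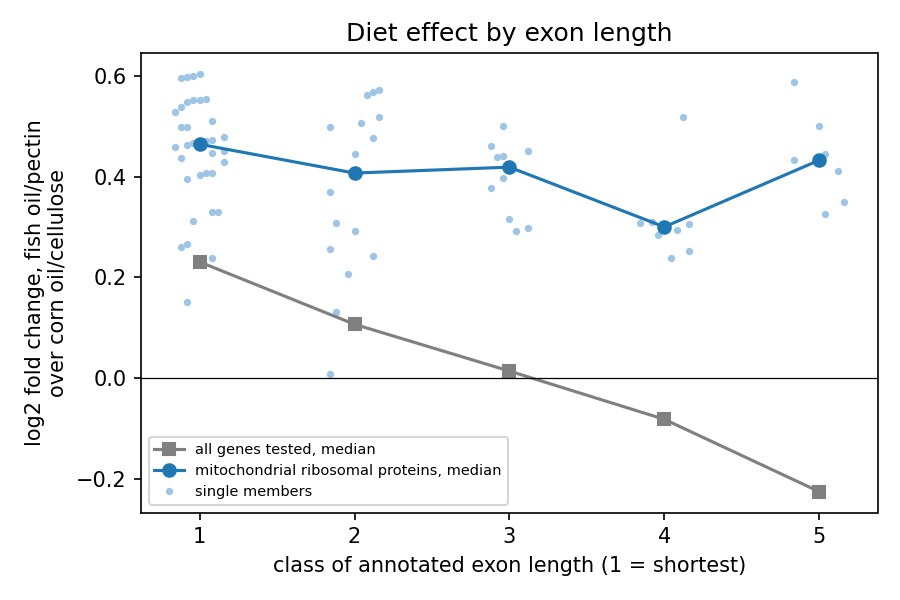
Log2 fold change (y axis) by class of annotated exon length, 5 classes of equal size (x axis, 1 = shortest): grey squares are the median of all genes tested, dark circles the median of the members and light points single members. The grey line falls from 0.23 to -0.23, while the members stay between 0.30 and 0.46.

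Members also varied together among libraries of the same diet and name form. After the mean of each diet and name form was taken off, the median Pearson r over 2926 pairs of members was 0.71 across the 16 libraries, and 64 of 77 had r above 0.7 with the mean of the other members. Members named here were chosen by these values. The highest were Mrps25 with 0.97, Mrpl57 and Mrpl12 with 0.96. Below 0.3 were 5 members, Mrps33, Mrps6, Mrps2, Mrpl23 and Mrpl9, the last with -0.54. These values share libraries, their depth and the high level of library 7, and describe these libraries only.

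Mitochondrial ribosomal proteins that carry other symbols moved the same way, with 4 of 5 higher and 0 lower at a median of 0.34. Over all genes tested 21.7% were higher and 20.1% lower. Chchd1, a small-subunit protein, rose by a log2 fold change of 0.68 ± 0.10 and Gadd45gip1, of the large subunit, by 0.60 ± 0.12. Dap3, a GTP-binding protein of the small subunit, rose by 0.29 ± 0.06. Ptcd3, of the small subunit, was named as the only one not to pass and had 0.07 ± 0.05.

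Of 28 proteins that assemble the mitochondrial ribosome or modify its RNA, 14 were higher and 0 lower, with a median of 0.20. This share was not tested against that of the members or of all genes (21.7% higher and 20.1% lower). Mpv17l2, which takes part in that assembly, rose by 0.48 ± 0.09, Malsu1, which holds the large subunit apart until it is mature, by 0.44 ± 0.09, and Rbfa, which acts on small-subunit RNA, by 0.33 ± 0.07. Of 16 translation factors 6 were higher and 1 lower, with a median of 0.12. Tufm, the elongation factor that delivers tRNA, rose by 0.34 ± 0.06, and its exchange factor Tsfm by 0.49 ± 0.09. Slirp, which stabilises mitochondrial messages, rose by 0.56 ± 0.10. The factor that was lower was Guf1, with -0.30 ± 0.07, named for being the only one.

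Among 12 genes of mitochondrial transcription and DNA maintenance 4 were higher (Tfam, Ssbp1, Mgme1 and Top1mt) and 1 lower, with a median of 0.14. Tfam, which packages mitochondrial DNA and starts its transcription, rose by 0.30 ± 0.06. The gene that was lower was Polg, the polymerase of mitochondrial DNA, with -0.15 ± 0.05. Of 10 regulators of mitochondrial biogenesis 2 were higher and 3 lower, shares near those of all genes (21.7% and 20.1%). Tfam and Nrf1, at 0.23 ± 0.06, were higher. The coactivator Ppargc1a averaged 74.3 CPM (SD 9.82, n = 9) under corn oil/cellulose. Under fish oil/pectin it averaged 43.0 CPM (SD 13.4, n = 7), a log2 fold change of -0.76 ± 0.17 (SE, edgeR adjusted p = 0.00228). Its relative Ppargc1b, at -0.35 ± 0.11, and Gabpa, at -0.34 ± 0.08, were lower as well. Esrra, Pprc1, Yy1, Gabpb1 and Myc did not pass, with values from -0.02 to 0.10.

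The members' change can be set beside other large complexes. Of 77 tested cytosolic ribosomal protein genes 76 were higher and 0 lower, with a median of 0.49, and of 76 respiratory complex subunits 71 were higher and 0 lower, with a median of 0.38. In the libraries without the GC prefix these medians were 0.14 and 0.07, against 0.21 for the members. The difference between name forms passed for 56 cytosolic ribosomal proteins and 45 respiratory subunits, against 8 members. The difference between the lists was not tested. Over all genes tested 21.7% were higher and 20.1% lower, and the difference between name forms passed for 8.41%.

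Members were spread over 17 chromosomes, and 33 had a protein-coding gene starting within 1000 bases on the other strand. Mrpl46 and Mrps11 share such a start region, with starts 412 bases apart, and had log2 fold changes of 0.53 and 0.56. Of 30 tested neighbours that were no members 12 were higher, 3 lower (Pnpla7, Ppp1r10 and Gga3) and 15 did not pass, with a median of 0.07; of all genes 21.7% were higher and 20.1% lower. Examples chosen after their values were seen are Fau, a cytosolic ribosomal protein gene beside Mrpl49, at 0.54, and Ndufs6, a complex I subunit gene beside Mrpl36, at 0.53. Pnpla7, beside Mrpl41, had -0.38 where Mrpl41 had 0.55.

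Members with and without a motif in the start region had medians close to each other, with no test made. The median log2 fold change was 0.40 with the NRF1 letters and 0.44 without, 0.44 and 0.39 for the ETS letters, 0.45 and 0.41 for YY1, and 0.47 and 0.43 for the E-box. Mrpl12, with the NRF1 letters 81 bases before its start, was among the members with larger changes, and Mrpl9, with them 28 bases before its start, was among the 3 that did not pass.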

How the data were processed

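The authors deposited raw counts per gene symbol for each library. STAR 2.6.0a, HTSeq 0.11.1 and GRCm38 are listed in the submitters' processing notes. No source used here gives their roles, the strand setting or the annotation release. Per the labels' protocols, 200 ng of total RNA from the colon entered a stranded mRNA preparation. Genes were kept by filterByExpr (14321 of 54392, 99.9% of counts) and tested with edgeR 4.0.16 (R 4.3.3): TMM scaling, robust quasi-likelihood test, diet plus name form, Benjamini-Hochberg threshold 0.05. A 4-group model on the same genes gave effects within name forms and their difference. The SE was taken as the absolute log2 fold change divided by sqrt(F). Fold changes were computed by edgeR. DESeq2 1.42.0 was an alternative. GENCODE M21 gave coordinates and exon length (98.8% of symbols, 100% of members), and RefSeq the start regions (first listed start where there were several). Libraries of a diet differed beyond sampling noise (chi-square per degree of freedom 8.2 to 141 over 57 pairs). The fits were also run on simulated counts with 200 changed genes. Genes were drawn independently there, unlike the members, which varied together.

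Named members were the 6 largest and 6 smallest changes that passed, the 4 lowest p, the 4 highest and 3 lowest RPKM, the 4 lowest p for the difference between name forms, and a fixed set of known roles; for other lists up to 3 genes of lowest p, and all regulators. Members and lists were chosen with earlier results of these data known.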

Additional observations from a re-analysis of the deposited data

Results flagged for a closer look

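Fish oil/pectin library 7 lay far above the other libraries of its diet for 3 members: Mrps28 with 48.9 CPM (next highest 35.6), Mrpl3 with 65.2 CPM (next 54.4) and Mrps18b with 43.5 CPM (next 30.9). These were 3 of 66 groups examined (32 named members and their mean, in 2 diets). Chance alone would mark about 1 in 20 if libraries of a diet were alike and members independent. Neither held, since name forms were pooled and members varied together, so no rate of chance can be given for the 3.

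The diet effect differed between GC-named and other libraries by an edgeR test of the difference for 8 of 77 members, where 8.41% of all genes passed. It was larger in the GC-named libraries in each of the 8. On the log2 scale the difference was 0.58 for Mrpl14, 0.47 for Mrpl24, 0.55 for Mrpl30, 0.56 for Mrpl28, 0.63 for Mrpl52, 0.50 for Mrps24, 0.51 for Mrps16 and 0.50 for Mrpl33. The adjusted p ran from 0.0181 (Mrpl14) to 0.0485 (Mrpl33). Without fish oil/pectin library 2, 0 of them passed, and likewise 0 with the non-epithelial score as covariate or the replicate block.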

How the results depend on the processing

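Across 31 other settings 0 members were lower. Leaving out single libraries gave 72 to 75 members higher with medians of 0.37 to 0.47, and 72 of the 74 were called in each such fit. Members higher were 15 (median 0.22) in libraries without the GC prefix alone, 48 in the lower number series of library names (4 corn oil/cellulose and 7 fish oil/pectin libraries), 0 with the non-epithelial score as covariate and 22 with that score in DESeq2; the cause was not tested. The median without fish oil/pectin libraries 6 and 7 was 0.32. Counts over all genes were 5979 in the reported fit, 900 without the GC prefix and 2250 in the lower series. With the score they were 4 in edgeR and, of 11440 genes given an adjusted p, 753 in DESeq2. Scaling by total counts moved the median of all genes to -0.08 and left 70 members higher (median 0.36), with 2247 genes higher and 3779 lower against 3103 and 2876. Removing the length trend gave 3177 and 1579, and the libraries without the GC prefix alone 614 and 286. In the latter Mrpl27 had -0.042, Mrpl24 -0.059 and Mrps33 -0.034, below 0. For the 32 tested members named by the stated rule, 858 of 992 values under other settings kept their direction and side of the threshold. Another 131 no longer passed and 3 are those below 0. Members named for other reasons lay outside this count. Among them Mrps2 changed sign in 15 of the 31 settings and Mrpl9 passed in 3.

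The difference between name forms (8 members) ranged from 0 (without fish oil/pectin library 2, where 13 had an unadjusted p under 0.05) to 18 (without library 3). It was 2 without fish oil/pectin library 1, 3 without library 3, 6 or 7 of corn oil/cellulose or 6 of fish oil/pectin, 4 without library 1, 2 or 4 of corn oil/cellulose, and 5 without library 5 or 8 of corn oil/cellulose or 4 of fish oil/pectin. It was 3 with total counts, 5 with the length trend removed, 4 with sex as covariate and 0 with the score as covariate (33 unadjusted). Of the 8, Mrpl24, Mrpl30 and Mrpl33 were among those that passed with the length trend removed. DESeq2 gave 12 members, where 1724 of all 14321 genes passed. The share of all genes was not counted for the other settings.

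Replicate numbers did not pair the libraries: the deviations of same-numbered libraries correlated by -0.07 to 0.48, above 0.1 in 4 of 7 pairs, and 2 of 14 libraries correlated best with their own number. With the replicate block 60 members were higher (median 0.46; 3501 genes in all), and the difference between name forms passed for 0 (31 unadjusted).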
